A study of Oryza sativa with 6 samples.

Results

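The genes described here are 61 nuclear genes of rice (Oryza sativa) whose descriptions name photosynthesis or the chloroplast, the green form of the plastid. They were taken from the authors' deposited table of 1962 genes that differed between a knockout of PINE1 and wild type. Of these, 1961 are among the 27397 genes with normalized reads (7.16%). A gene entered when either of its descriptions held photosystem, chlorophyll, light-harvest, ribulose, rubisco, ferredoxin, thylakoid, plastocyanin or chloroplast, which 64 genes met. Descriptions with kinase, transporter or P450 and the gibberellin synthesis gene OsCPS1 were left out, which removed 3 genes. Because the table was made by a test on the same 6 libraries, each of the 61 genes differs between the genotypes by choice, and its fold change is given as a description, without a test. The pine1 group held 3 samples of the knockout line pine1-1a in the Nipponbare background, and the wild type group held 3 samples of Nipponbare. Both groups were grown untreated in soil under 16 h days and cut 20 days after germination, and each sample pooled about 1 cm of the shoot base, with stem and shoot apical meristem, of 8 plants. A single line stands for the knockout, and the labels name pools of plants but no separate sowings, so that errors measure the spread between these pools.

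Chloroplasts capture light in the thylakoid membrane, where antenna proteins pass energy to photosystem II and photosystem I, electrons flow between them through the cytochrome b6-f complex and plastocyanin, and the products drive carbon fixation in the stroma. Most of the proteins are encoded in the nucleus and imported. In a grass shoot base the meristem and youngest leaf and stem cells hold undeveloped plastids, and the sheaths around them are partly green. In such bulk samples a change in the number of green cells and a change in RNA per cell cannot be told apart.

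Libraries held 27918842 to 36250239 reads, and no library repeats another: for pairs within a genotype the chi-square of the recovered reads was 6.21 to 9.80 times its degrees of freedom. PINE1 (Os12g0617000, chromosome 12), a zinc finger gene, had 5199, 5044 and 4173 normalized reads in pine1 replicates 1 to 3, against 3569, 3674 and 2943 in wild type replicates 1 to 3, so that its RNA level does not check the knockout label. The meristem marker OSH1 (Os03g0727000) had 998, 1033 and 761 normalized reads in pine1 replicates 1 to 3, against 281, 441 and 421 in wild type replicates 1 to 3, and was thus read in each library of the labelled tissue.

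Most of the photosynthesis genes were slightly higher in pine1. The log2 fold change was above 0 in 50 of the 61 genes and below 0 in 11, with a median of 0.33, while over all 24149 genes tested 12074 were above 0 and the median was 0.00. In the authors' table as a whole 1172 of 1962 genes were higher in pine1. The changes were small for that table: the median absolute log2 fold change was 0.35 in the 61 genes and 0.62 in its 1935 tested genes. Of the 61 genes, 4 were higher by at least 1 on the log2 scale, 13 by 0.5 to 1 and 33 by less than 0.5, and none was lower by more than 0.5. Reads were plentiful, with a median of 2474 normalized reads per gene against 452 over all genes tested, not corrected for gene length. The tested genes of the authors' table had a median of 439, so that the 0.35 and the 0.62 come from genes of unlike read depth. The libraries of the genotypes did not overlap in any of the 61 genes, which the choice of the genes favours. Over all genes tested they did not overlap in 26.4%, and in 13.5% they did not overlap and pine1 was higher. By limma 36 of the 61 genes were called higher and 7 lower at an adjusted p under 0.05, against 4.02% and 2.44% of all genes tested, and 18 were not called. Nothing is read from these counts, since the genes were chosen by the same contrast.

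By role, all 8 antenna genes, 9 photosystem I genes, 4 photosystem II genes and 2 other thylakoid genes were higher in pine1. The 11 genes that were lower were a ferredoxin reductase, a transketolase, a ferrochelatase, 3 genes of amino acid metabolism, 2 thioesterases, a peroxiredoxin and 2 cell surface copper proteins. Some roles hold only 1 to 3 genes, and whether roles differ was not tested. The words took in more than photosynthesis: 7 of the 61 genes are phytocyanins, copper proteins of the cell surface that the word plastocyanin picked up through a plastocyanin-like domain, and several others are plastid enzymes with no part in the light reactions. Without the 7 phytocyanins the median log2 fold change was 0.32 over 54 genes. By their locus identifiers the genes lie on 11 chromosomes, with 11 on chromosome 3 and 10 on chromosome 7.

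**Figure D1:**
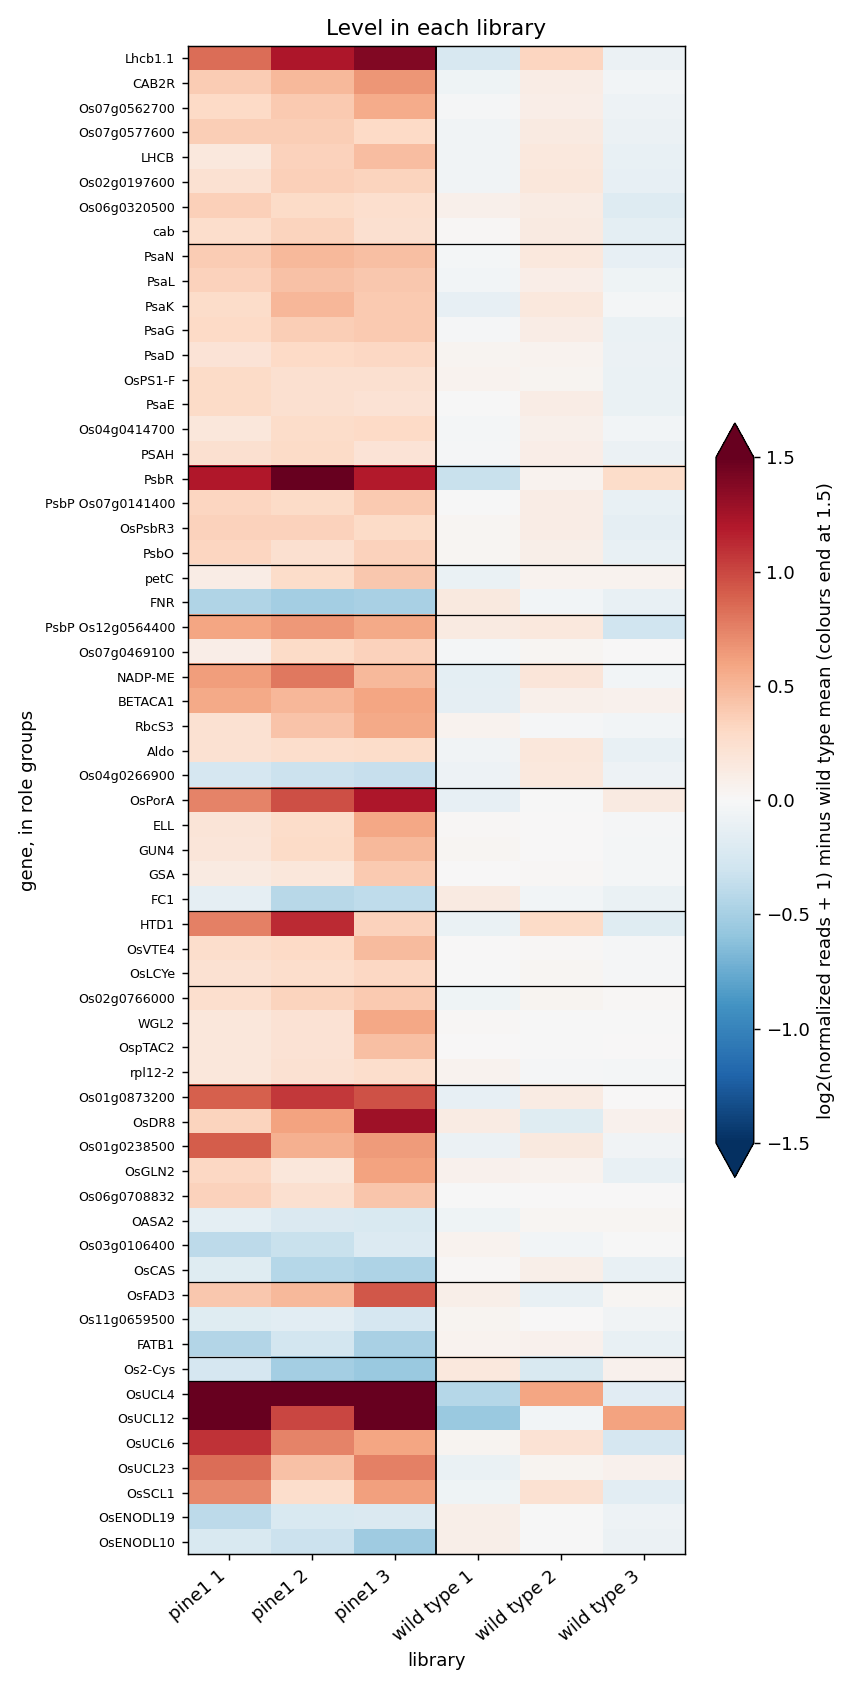
Level of each of the 61 genes in the 6 libraries, as log2(normalized reads + 1) minus the wild type mean of the gene, with libraries in columns and genes in rows by role. The 3 pine1 columns are red for the antenna and photosystem genes and deepest for PsbR, OsUCL4 and OsUCL12, while the 11 genes lower in pine1 are blue.

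Antenna proteins, which bind chlorophyll a and b and hand absorbed light energy to the photosystems, had a median log2 fold change of 0.34 and a range of 0.28 to 1.15. CAB2R (Os01g0600900, chromosome 1), the type I protein of the photosystem II antenna, had 29129, 31313 and 35418 normalized reads in pine1 replicates 1 to 3, against 21397, 24078 and 21707 in wild type replicates 1 to 3. Its log2 fold change was 0.51 (SE 0.08). Lhcb1.1 (Os01g0720500, chromosome 1), of the same type, had 4288, 5538 and 6279 normalized reads in pine1 replicates 1 to 3, against 2032, 2984 and 2260.2 in wild type replicates 1 to 3. The pine1 libraries lay well above those of wild type, with a log2 fold change of 1.15 (SE 0.16), more than that of any other antenna gene among the 8. Os07g0562700, a type III antenna protein, had 9373 ± 829 normalized reads in pine1 and 7013 ± 462 in wild type (SD, n = 3 each). LHCB (Os03g0592500), of type II, had 21258, 24248 and 26294 normalized reads in pine1 replicates 1 to 3, against 18393, 21186 and 17689 in wild type replicates 1 to 3. For LHCB the lowest pine1 library and the highest wild type library nearly met, and the log2 fold change was 0.33 (SE 0.09).

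Antenna genes described as part of photosystem I sat in a narrower band. Os07g0577600 had 5228 ± 149 normalized reads in pine1 and 4121 ± 360.0 in wild type (SD, n = 3 each), a change of 0.35 (SE 0.06) on the log2 scale. Os06g0320500, listed as a light-harvesting complex I gene, had 0.30 (SE 0.08), and cab (Os08g0435900), its type IV protein, 0.28 (SE 0.07) on the same scale. Os02g0197600, an antenna protein listed as type III without a photosystem, had 0.31 (SE 0.07). Summed over the 8 antenna genes, normalized reads came to 93090.1, 100738 and 107523 in pine1 replicates 1 to 3, against 72974, 82394 and 70189.9 in wild type replicates 1 to 3. The sum was thus higher in each pine1 library, and the ratio of the means was 1.34. Antenna genes form near-identical families, and the sources used here do not say how reads shared between copies were counted. A value of 1 copy can thus hold reads of another.

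Photosystem I was covered by 9 genes, all higher in pine1 by a similar amount, with a median log2 fold change of 0.27 and a range of 0.24 to 0.44. This complex takes electrons from plastocyanin on the lumen side and passes them to ferredoxin on the stroma side. PsaD (Os08g0560900), at the ferredoxin docking site, had 7128, 7603 and 7689 normalized reads in pine1 replicates 1 to 3, against 6359.6, 6433 and 5816 in wild type replicates 1 to 3. PsaE (Os07g0435300), also at that site, had 3980.2 ± 91.8 normalized reads in pine1 and 3355 ± 236 in wild type (SD, n = 3 each), a change of 0.25 (SE 0.06) on the log2 scale. OsPS1-F (Os03g0778100), the subunit that docks plastocyanin, had 0.25 (SE 0.05) on the same scale. PsaN (Os12g0189400), a lumen subunit, had 4745, 5111 and 4989.9 normalized reads in pine1 replicates 1 to 3, against 3569, 4075 and 3342 in wild type replicates 1 to 3. Its log2 fold change of 0.44 (SE 0.07) was the highest of the 9.

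The remaining photosystem I subunits lie at the rim of the complex. PsaL (Os12g0420400) had 4973, 5313 and 5183 normalized reads in pine1 replicates 1 to 3, against 3814, 4215 and 3746 in wild type replicates 1 to 3, groups that lay clearly apart, with a log2 fold change of 0.40 (SE 0.06). PsaK (Os07g0148900) had 0.39 (SE 0.08) and PsaG (Os09g0481200) 0.35 (SE 0.06), both next to the antenna. PSAH (Os05g0560000) had 0.24 (SE 0.06) and the PsaO gene Os04g0414700 0.25 (SE 0.05). Summed over the 9 genes, normalized reads averaged 44866 ± 1351 in pine1 and 36103 ± 2278 in wild type (SD, n = 3 each), a ratio of 1.24.

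Photosystem II, which splits water, was covered by 4 genes of the oxygen-evolving side. PsbR (Os07g0147500, chromosome 7), a small protein that helps to assemble that side, had 3872, 5273 and 3829 normalized reads in pine1 replicates 1 to 3, against 1334, 1743 and 2035 in wild type replicates 1 to 3. The lowest pine1 library was well above the highest wild type library, and the log2 fold change was 1.35 (SE 0.16). Its relative OsPsbR3 (Os08g0200300, chromosome 8) had 5335, 5364 and 5129 normalized reads in pine1 replicates 1 to 3, against 4283, 4531 and 3842 in wild type replicates 1 to 3. For OsPsbR3 the log2 fold change was 0.33 (SE 0.06), close to that of PsbO (Os01g0501800), which stabilises the manganese cluster, at 0.30 (SE 0.06), and that of PsbP (Os07g0141400), which retains its calcium and chloride ions, at 0.33 (SE 0.06). PsbO had 11857 ± 467 normalized reads in pine1 and 9628 ± 690.1 in wild type (SD, n = 3 each).

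**Figure D2:**
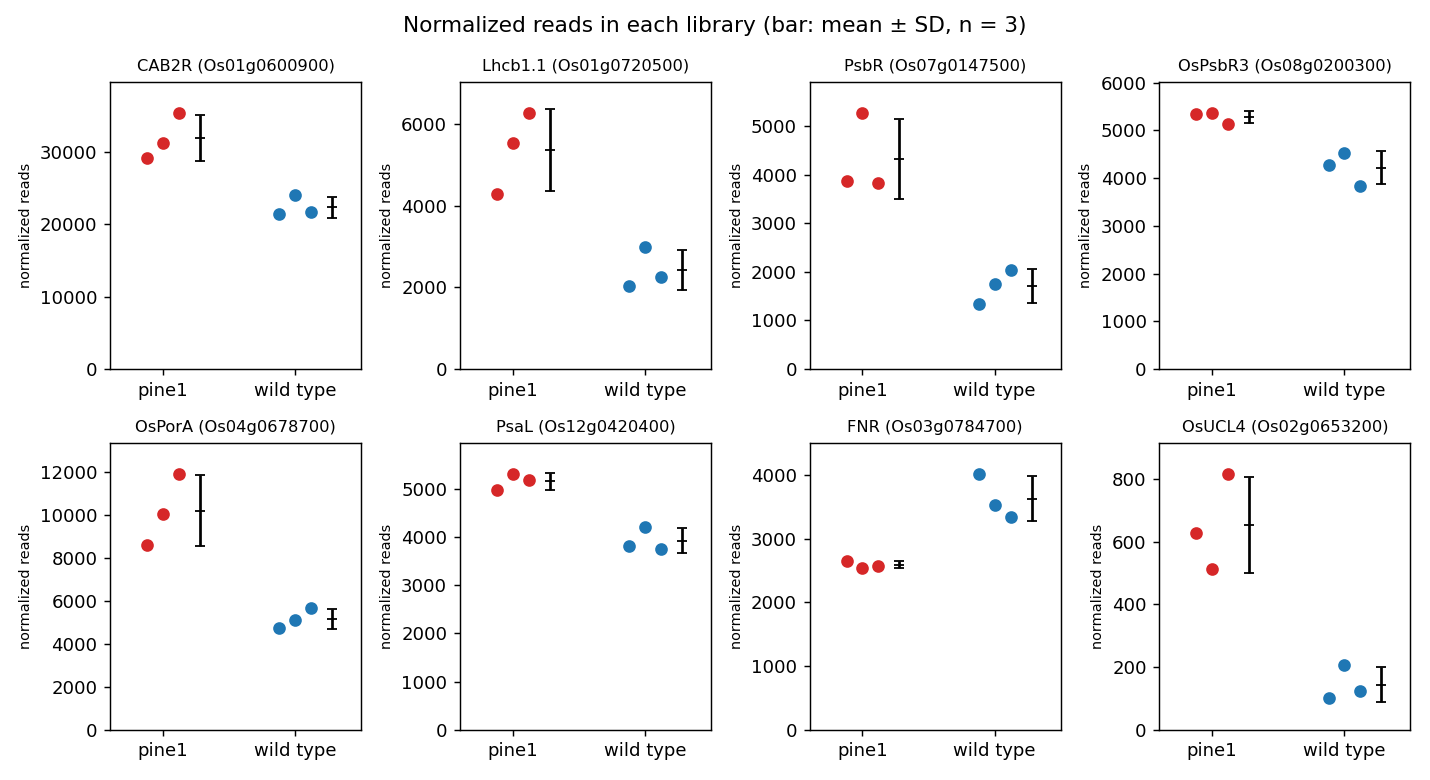
Normalized reads of 8 of the genes in each library, pine1 in red and wild type in blue, with the mean ± SD (n = 3) beside the points and axes that start at 0. The genotypes lie furthest apart for OsUCL4, PsbR, Lhcb1.1 and OsPorA, and closer for CAB2R, PsaL and OsPsbR3, and FNR is lower in pine1.

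Electron carriers went in both directions. The Rieske protein petC (Os07g0556200) of the cytochrome b6-f complex had 2333, 2601 and 2852 normalized reads in pine1 replicates 1 to 3, against 2003, 2229.8 and 2230.2 in wild type replicates 1 to 3. Its groups lay close together, at a log2 fold change of 0.27 (SE 0.08). FNR (Os03g0784700, chromosome 3), described as the root isozyme of ferredoxin reductase, which feeds electrons to ferredoxin in plastids that do not photosynthesise, had 2647, 2539 and 2576 normalized reads in pine1 replicates 1 to 3, against 4019, 3521 and 3343 in wild type replicates 1 to 3. It was lower in pine1, by a log2 fold change of -0.48 (SE 0.07), the lowest of the 61 genes. Beside it, 3 loci set down as root markers had summed levels of 179, 420.4 and 402 normalized reads in pine1 replicates 1 to 3, against 393, 464 and 635 in wild type replicates 1 to 3. By limma, edgeR and DESeq2 0 of the 3 passed, and by limma 2 were higher and 1 lower at an unadjusted p under 0.05. Without wild type replicate 2, 1 of them was called higher by limma. Os02g0662000, the lower one, had 88.9, 268 and 297 normalized reads in pine1 replicates 1 to 3, against 355, 395 and 589 in wild type replicates 1 to 3. Os02g0745100 had 71.5, 79.8 and 62.0 normalized reads in pine1 replicates 1 to 3, against 38.2, 46.1 and 46.2 in wild type replicates 1 to 3, with pine1 above wild type in each library. Os03g0107300 had 18.4, 72.8 and 42.9 normalized reads in pine1 replicates 1 to 3, against 0.0, 23.1 and 0.0 in wild type replicates 1 to 3, and the groups overlapped. Their part in the level of FNR was not tested. Of 2 other thylakoid genes, the PsbP-family gene Os12g0564400 had 669 ± 18.6 normalized reads in pine1 and 444 ± 76.0 in wild type (SD, n = 3 each), and the thylakoid phosphoprotein gene Os07g0469100 had a log2 fold change of 0.25 (SE 0.07).

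Carbon metabolism was represented by 5 genes, of which 4 were higher in pine1. RbcS3 (Os12g0291100, chromosome 12) encodes a small subunit of Rubisco, the enzyme that fixes CO2, and had 389, 447 and 492 normalized reads in pine1 replicates 1 to 3, against 344, 327 and 323 in wild type replicates 1 to 3. Its log2 fold change was 0.41 (SE 0.10), and other small subunit copies can share reads with it. RbcS3 is 1 copy and does not stand for the small subunit as a whole. Other chromosome 12 loci set down in the Rubisco and Calvin cycle list went both ways, and neither passed. Os12g0292400 had -0.25 (limma adjusted p = 0.33) and Os12g0274700 0.27 (limma adjusted p = 0.39), while Os12g0291400 had too few reads to be tested. BETACA1 (Os01g0639900), a carbonic anhydrase that interconverts CO2 and bicarbonate, had 548 ± 19.2 normalized reads in pine1 and 375 ± 30.6 in wild type (SD, n = 3 each), a change of 0.55 (SE 0.09) on the log2 scale. NADP-ME (Os01g0188400), which releases CO2 from malate, had 1548, 1742 and 1402 normalized reads in pine1 replicates 1 to 3, against 909, 1139.9 and 975 in wild type replicates 1 to 3. Its log2 fold change of 0.63 (SE 0.10) was the highest of the 5. Aldo (Os11g0171300), the plastid aldolase of the Calvin cycle, had 0.26 (SE 0.07) on the same scale. The transketolase-like gene Os04g0266900 was lower in pine1, at 931 ± 32.2 normalized reads in pine1 and 1154 ± 109 in wild type (SD, n = 3 each).

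Chlorophyll and haem share a tetrapyrrole pathway, and 5 of its genes are among the 61: 4 that serve chlorophyll synthesis were higher in pine1 and 1 of the haem branch was lower. OsPorA (Os04g0678700, chromosome 4), the light-dependent reductase of protochlorophyllide, had 8601, 10043 and 11903 normalized reads in pine1 replicates 1 to 3, against 4722, 5121 and 5639 in wild type replicates 1 to 3. Its lowest pine1 library was above its highest wild type library by a wide margin, with a log2 fold change of 0.97 (SE 0.11). GSA (Os08g0532200), which makes the first precursor, had 5194 ± 518 normalized reads in pine1 and 4422 ± 75.8 in wild type (SD, n = 3 each). ELL (Os03g0563300), the ChlI subunit of the magnesium chelatase that opens the chlorophyll branch, had 2130.5, 2247 and 2784 normalized reads in pine1 replicates 1 to 3, against 1876, 1864 and 1840.4 in wild type replicates 1 to 3. GUN4 (Os11g0267000), which activates the ChlH subunit of that chelatase, had a log2 fold change of 0.32 (SE 0.07), against 0.35 (SE 0.09) for ELL and 0.23 (SE 0.07) for GSA. FC1 (Os09g0297000), a ferrochelatase that inserts iron on the haem branch, had 1134, 933 and 959 normalized reads in pine1 replicates 1 to 3, against 1374, 1210.0 and 1168 in wild type replicates 1 to 3. Its log2 fold change was -0.31 (SE 0.09). Without pine1 replicate 3, in which GSA was highest, the log2 fold change of GSA was 0.15.

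Carotenoid and tocopherol genes protect the photosystems or, in 1 case, lead to a hormone. OsLCYe (Os01g0581300), the cyclase of the lutein branch, had 1098 ± 34.7 normalized reads in pine1 and 911 ± 14.2 in wild type (SD, n = 3 each). OsVTE4 (Os02g0701600), the last enzyme of alpha-tocopherol, had 2174 ± 177 normalized reads in pine1 and 1703 ± 19.0 in wild type (SD, n = 3 each). HTD1 (Os04g0550600), a carotenoid cleavage enzyme of strigolactone synthesis that restrains tiller buds, had 179, 230.4 and 134 normalized reads in pine1 replicates 1 to 3, against 98.3, 129 and 93.2 in wild type replicates 1 to 3. Its pine1 libraries spread widely, and the lowest of them was just above the highest wild type library, at a log2 fold change of 0.74 (SE 0.21).

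**Figure D3:**
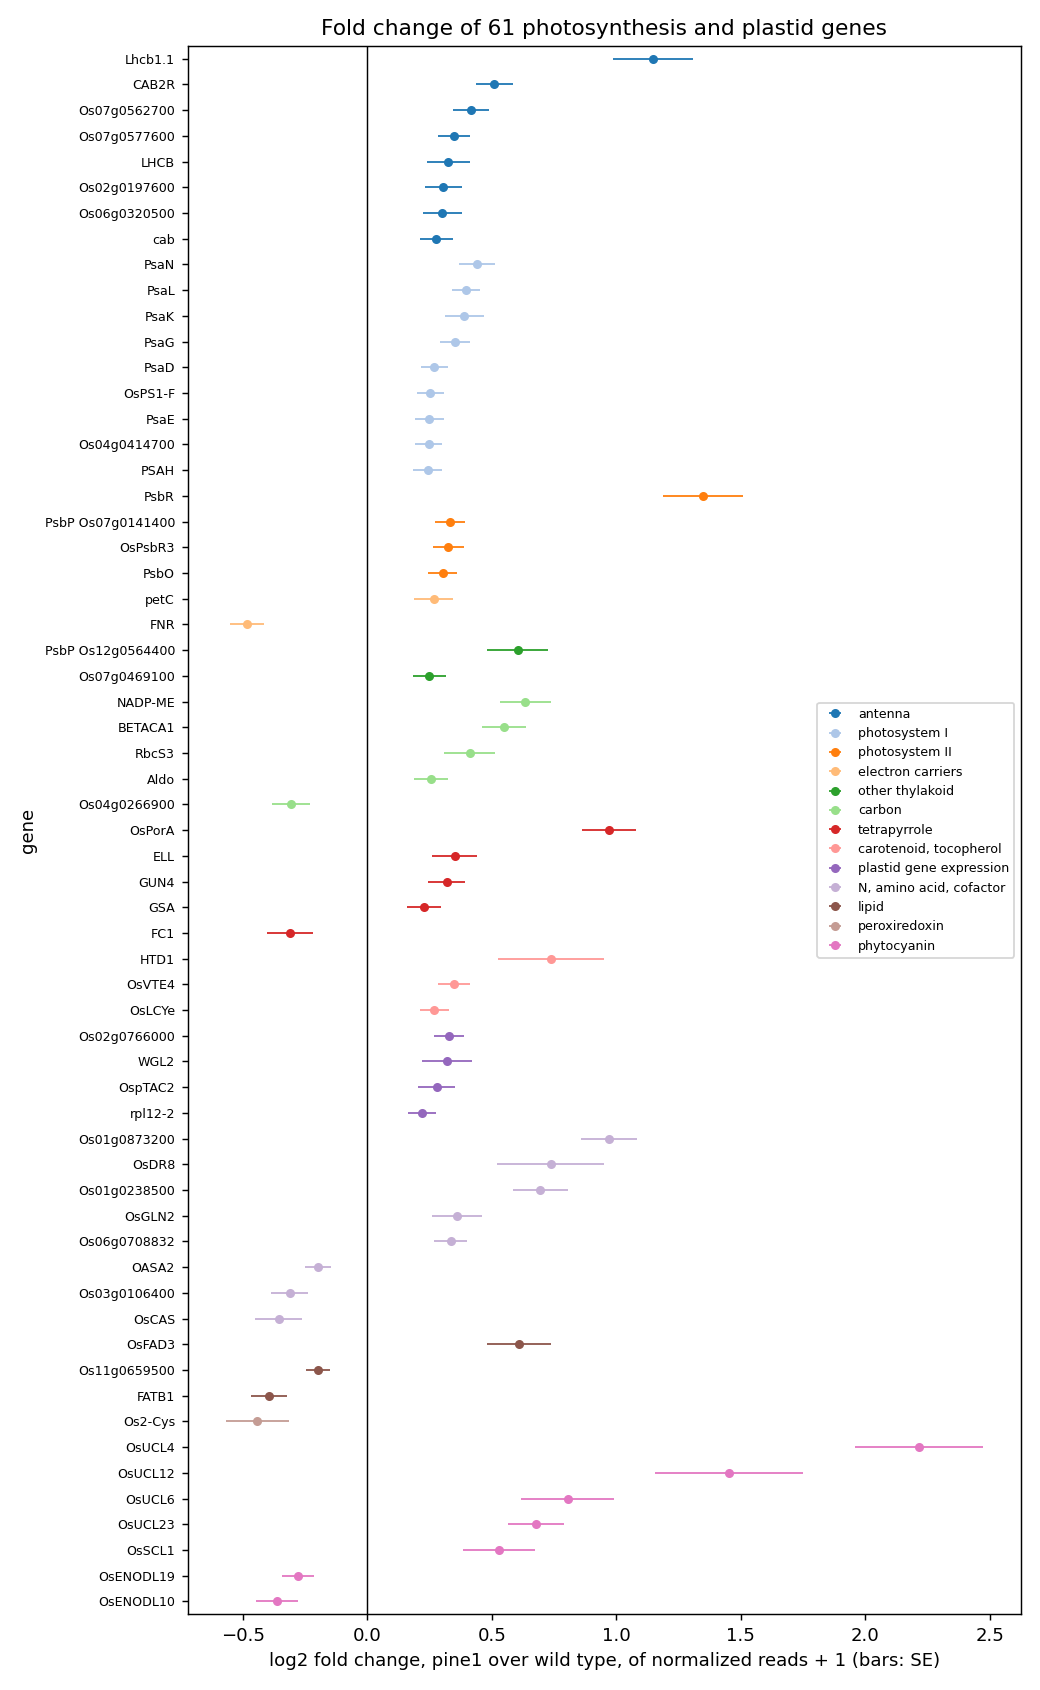
Log2 fold change of each of the 61 genes, pine1 over wild type, on the log2(normalized reads + 1) scale, with bars of 1 SE and colours by role. The photosystem I genes form a tight column between 0.24 and 0.44, most antenna genes lie beside them, and the phytocyanins span -0.36 to 2.22.

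Genes of plastid gene expression and development were each slightly higher in pine1, with a median log2 fold change of 0.30 over 4 genes, which was 0.19 without pine1 replicate 3. They were the ribosomal protein genes rpl12-2 (Os01g0662300) and WGL2 (Os03g0769100), OspTAC2 (Os03g0824100), a pentatricopeptide repeat protein of the plastid transcription machinery, and the DCL-related gene Os02g0766000. WGL2, whose product is the S9 protein of the small plastid ribosome subunit, had 1699, 1754 and 2272 normalized reads in pine1 replicates 1 to 3, against 1536, 1502 and 1504 in wild type replicates 1 to 3. Replicate 3 stood above the other pine1 libraries, and without it the log2 fold change of WGL2 was 0.19 instead of 0.32. OspTAC2 had 2559 ± 279 normalized reads in pine1 and 2103 ± 13.2 in wild type (SD, n = 3 each). The gene with the highest adjusted p of the 61 in the authors' deposited table was rpl12-2, at 0.0489, and it had 1519, 1583 and 1619.7 normalized reads in pine1 replicates 1 to 3, against 1398, 1339 and 1321 in wild type replicates 1 to 3, values close to each other between the genotypes.

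Nitrogen, amino acid and cofactor genes were divided, with 5 of 8 higher in pine1. Os01g0873200, the amidotransferase that opens purine synthesis, had 289.9, 324 and 302 normalized reads in pine1 replicates 1 to 3, against 142, 169 and 156 in wild type replicates 1 to 3. That was the highest log2 fold change of the 8, 0.97 (SE 0.11). OsGLN2 (Os04g0659100), the plastid glutamine synthetase that recovers ammonia from photorespiration, had 3465, 3153 and 4257 normalized reads in pine1 replicates 1 to 3, against 2926, 2897 and 2599 in wild type replicates 1 to 3, and its log2 fold change of 0.36 was 0.24 without pine1 replicate 3. OsDR8 (Os07g0529600), of thiamine synthesis, had 296, 359 and 571 normalized reads in pine1 replicates 1 to 3, against 257, 207 and 245 in wild type replicates 1 to 3, and its log2 fold change of 0.74 was 0.47 without that library. In both genes pine1 replicate 3 was the highest library. The arogenate dehydrogenase gene Os06g0708832, of tyrosine synthesis, had 946 ± 59.1 normalized reads in pine1 and 749 ± 3.0 in wild type (SD, n = 3 each).

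A pair of genes described as branched-chain aminotransferases, which take part in leucine, isoleucine and valine metabolism, went apart: Os01g0238500 had a log2 fold change of 0.70 (SE 0.11) and Os03g0106400 one of -0.31 (SE 0.08). Lower in pine1 were also OASA2 (Os03g0264400), an anthranilate synthase of tryptophan synthesis, with 2303 ± 66.7 normalized reads in pine1 and 2644 ± 101 in wild type (SD, n = 3 each), and OsCAS (Os04g0165700), a cysteine synthase, with 589.8 ± 66.1 normalized reads in pine1 and 754 ± 51.4 in wild type (SD, n = 3 each). Lipid genes were divided too. OsFAD3 (Os11g0104400), an omega-3 desaturase of membrane lipids, had 1526, 1608 and 2204 normalized reads in pine1 replicates 1 to 3, against 1225, 1061 and 1172 in wild type replicates 1 to 3, while FATB1 (Os06g0143400), a thioesterase that ends fatty acid chains in the plastid, had 2143, 2409 and 2082 normalized reads in pine1 replicates 1 to 3, against 3013, 3035 and 2682 in wild type replicates 1 to 3. The log2 fold changes were 0.61 (SE 0.13) for OsFAD3, -0.40 (SE 0.07) for FATB1 and -0.20 (SE 0.05) for a second thioesterase gene, Os11g0659500. Os2-Cys (Os04g0416400), a peroxiredoxin that removes peroxides, had 305 ± 35.4 normalized reads in pine1 and 416 ± 56.0 in wild type (SD, n = 3 each).

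Phytocyanins showed the widest span of the 61 genes. OsUCL4 (Os02g0653200, chromosome 2), an uclacyanin, had 629, 512 and 817 normalized reads in pine1 replicates 1 to 3, against 102, 208 and 122 in wild type replicates 1 to 3. The pine1 libraries lay far above those of wild type, and the log2 fold change was 2.22 (SE 0.26), the highest of the 61. OsUCL12 (Os03g0850900), listed as similar to a basic blue protein, had 216, 143 and 245 normalized reads in pine1 replicates 1 to 3, against 48.1, 69.2 and 109 in wild type replicates 1 to 3, a change of 1.45 (SE 0.30) on the log2 scale with replicates far apart in both genotypes. OsUCL6 (Os02g0758800), OsUCL23 (Os08g0137400) and OsSCL1 (Os03g0807500) had 0.80, 0.68 and 0.53 on the same scale. The early nodulin-like genes OsENODL10 (Os03g0115000) and OsENODL19 (Os07g0112700) were lower in pine1, and OsENODL19 had 3912 ± 266 normalized reads in pine1 and 4750.1 ± 272 in wild type (SD, n = 3 each).

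Levels also varied between libraries of a genotype, and role by role. In wild type, replicate 2 was the highest library in 8 of 8 antenna genes and in 8 of 9 photosystem I genes, and replicate 3 the lowest in 6 and in 8. The antenna median deviated from the genotype mean by -0.05, 0.13 and -0.10 on the log2 scale in wild type replicates 1 to 3. The plastid gene expression group deviated by 0.01, -0.01 and 0.00 in the same libraries. In pine1, replicate 3 was the highest library in 4 of 4 plastid gene expression genes, in 4 of 5 tetrapyrrole genes and in 4 of 8 antenna genes, and the tetrapyrrole median deviated by -0.13, -0.06 and 0.16 in pine1 replicates 1 to 3. Over all genes tested the median deviation was 0.00 in each library, which the scaling of the libraries favours. Of all 24149 genes tested, wild type replicate 2 was the highest wild type library in 8070 and wild type replicate 3 the lowest in 7878. The highest pine1 library was replicate 3 in 8474 of them.

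Photosynthesis genes follow the daily clock, and 9 loci set down as circadian clock genes varied between the same libraries. In pine1, replicate 1 was the lowest library in 9 of 9 clock loci and replicate 3 the highest in 6. In wild type, replicate 3 was the highest in 8 of 9, unlike the antenna genes, for which replicate 3 was the lowest in 6 of 8. Of all 24149 genes tested, pine1 replicate 1 was the lowest pine1 library in 8111 and wild type replicate 3 the highest wild type library in 7417. The clock loci summed to 58333, 63919.7 and 70593 normalized reads in pine1 replicates 1 to 3, against 54291, 57165 and 62319 in wild type replicates 1 to 3, and the genotypes overlap. Most of each sum came from Os08g0157600, with 51049.9, 53882 and 60245 normalized reads in pine1 replicates 1 to 3, against 47707, 49960.3 and 53911 in wild type replicates 1 to 3. By limma 0 of the 9 clock loci passed, and 2 had an unadjusted p under 0.05, both higher. With edgeR 0 passed and with DESeq2 1, while 2 passed by limma without pine1 replicate 1 and 1 without wild type replicate 3. The median log2 fold change was 0.14, and none of the 9 was below 0. The largest was that of Os09g0532400, 0.86 (SE 0.23), which did not pass (limma adjusted p = 0.0624). GI (Os01g0182600), the 1 clock locus that is in the authors' table of differing genes, had 1218, 1599 and 1977 normalized reads in pine1 replicates 1 to 3, against 1112, 1071 and 1278 in wild type replicates 1 to 3. Its groups overlapped, and it did not pass here (log2 fold change 0.45, limma adjusted p = 0.13). The part of the clock in the levels of the photosynthesis genes was not tested.

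**Figure D4:**
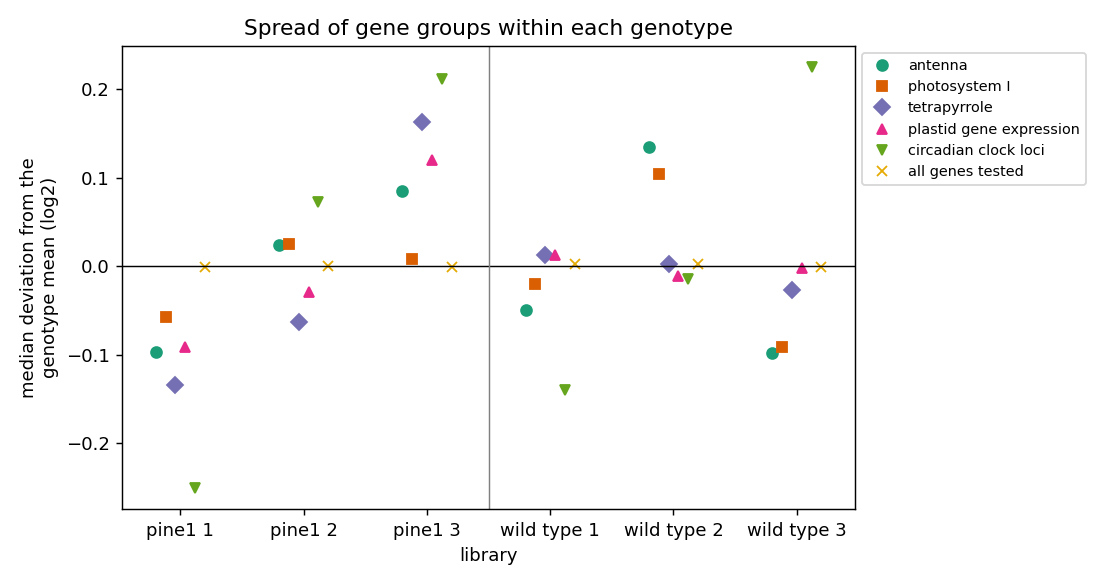
Median deviation of gene groups from their genotype mean, on the log2 scale, in each library (x axis). Antenna and photosystem I genes were high in wild type replicate 2 and low in wild type replicate 3, where the clock loci were highest, and tetrapyrrole, plastid gene expression and clock genes were high in pine1 replicate 3.

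The wider pathway was read from 72 loci written down from memory in 8 lists, apart from the words that chose the 61 genes. Of 69 that could be tested, 24 rose in pine1, 0 fell and 45 did not pass (limma, adjusted over all 24149 genes). In all 38 had an unadjusted p under 0.05 and were higher, and 1 was lower. Of these, 11 higher loci and the 1 lower locus lie outside the 61 genes, and the rest were chosen by this contrast. The share of all genes at an unadjusted p under 0.05 is not given here. Of all genes tested, 4.02% were called higher. The 24 include 21 of the 61 genes, which were chosen by this contrast, so the count is not independent of that choice. The median log2 fold change of the 69 loci was 0.24 and 64 were above 0. Among the 42 loci that are not in the 61 genes, 3 rose, 0 fell, 37 were above 0 and the median was 0.14, but genes of the authors' table that match the words of the rule are absent from these 42 by construction. Calls moved with the samples, since 11 loci rose when pine1 replicate 2, pine1 replicate 3 or wild type replicate 3 was left out, and 8 when wild type replicate 1 was.

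The lists differed in how many of their loci rose. In the photosystem I list 9 of 9 rose, and all 9 are among the 61 genes. In the antenna list 6 of 14 rose, in the photosystem II list 4 of 8, in the Rubisco and Calvin cycle list 3 of 15 and in the chlorophyll synthesis list 1 of 13. Of all genes tested, 4.02% were called higher. The 6 antenna, 4 photosystem II and 1 chlorophyll synthesis calls are likewise all among the 61 genes, as is 1 of the 3 Calvin cycle calls. Since the 61 genes were chosen by this contrast, these counts are not independent of that choice. Leaving out pine1 replicate 2, pine1 replicate 3, wild type replicate 1 or wild type replicate 3 left 3 photosystem I calls and 0 calls in the Rubisco and Calvin cycle list. Without wild type replicate 1, moreover, 3 antenna and 1 photosystem II loci rose, without wild type replicate 3 there were 3 antenna calls, and without pine1 replicate 1 there were 3 in the chlorophyll synthesis list. In the chlorophyll synthesis list 2 loci rose with edgeR and 3 with DESeq2, and in the Rubisco and Calvin cycle list 5 rose with DESeq2 and 1 with the filter of 5 CPM. None of 4 electron carrier loci or 4 chlorophyll breakdown loci rose or fell by limma, and 1 in each list had an unadjusted p under 0.05. By edgeR 0 passed in either list, and by DESeq2 1 electron carrier locus rose, as it did by limma without pine1 replicate 1. DESeq2 on these libraries also made the authors' table. That table holds as many loci of each pathway list as DESeq2 called here, so that the DESeq2 counts are no separate check. Median log2 fold changes were 0.30 in the antenna list, 0.27 in the photosystem I list and 0.26 in the photosystem II list. They were 0.20 in the chlorophyll synthesis list, 0.15 in the Rubisco and Calvin cycle list and 0.07 in the electron carrier list. These medians also depend on the choice of the 61 genes, which hold 8 of 14 antenna, 9 of 9 photosystem I and 4 of 8 photosystem II loci. They hold 3 of 13 chlorophyll synthesis, 2 of 15 Rubisco and Calvin cycle and 1 of 4 electron carrier loci. Whether the lists differ from each other was not tested.

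Of the 3 loci that rose outside the 61 genes, a pair belongs to the Calvin cycle. Os03g0129300, with the symbol GADPH and described as a glyceraldehyde-3-phosphate dehydrogenase, had 3667, 3743 and 3938 normalized reads in pine1 replicates 1 to 3, against 3257, 3285 and 2991 in wild type replicates 1 to 3. Its log2 fold change was 0.25 (SE 0.05, limma adjusted p = 0.0275). Leaving out any library other than pine1 replicate 1 ended the call (adjusted p 0.00339 to 0.102 over 14 alternatives). Os04g0459500, of the same enzyme, had 5886 ± 368 normalized reads in pine1 and 4838 ± 392 in wild type (SD, n = 3 each), a change of 0.28 on the log2 scale (SE 0.07, limma adjusted p = 0.0442). Leaving out any of the 6 libraries ended that call, as did the filter of 5 CPM (adjusted p 0.0508, and 0.00414 to 0.127 over 14 alternatives). OsGLK1 (Os06g0348800), a transcription factor of a family that activates antenna and chlorophyll genes, had 3909, 4145 and 4688 normalized reads in pine1 replicates 1 to 3, against 3269, 3276 and 3577 in wild type replicates 1 to 3. It rose by 0.33 on the log2 scale (SE 0.07, limma adjusted p = 0.0279), a call lost when any of pine1 replicate 2 (0.0637), pine1 replicate 3 (0.0551), wild type replicate 1 (0.109) and wild type replicate 2 (0.0997) was left out. Over 14 alternatives its adjusted p was 0.000778 to 0.109. The other GLK locus, Os01g0239000, differed by 0.04 on the log2 scale (95% interval -0.08 to 0.16, limma adjusted p = 0.71).

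**Figure D5:**
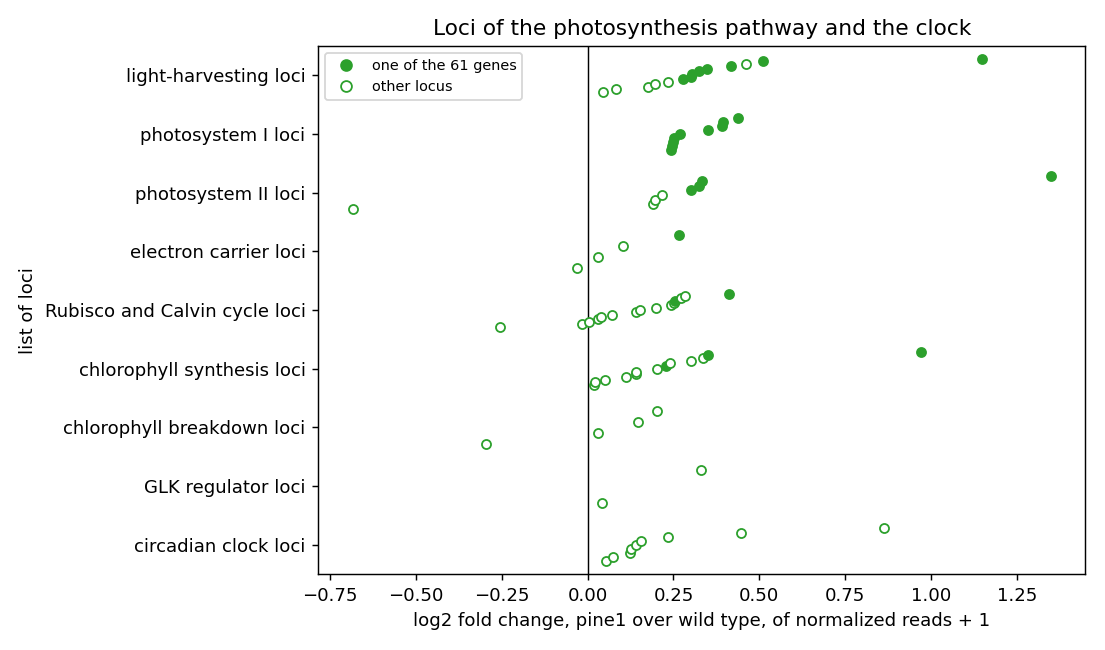
Log2 fold change, pine1 over wild type, of the tested loci of 8 pathway lists and the clock list, filled for loci among the 61 genes and open for other loci. All 9 photosystem I loci are filled and lie between 0.24 and 0.44. Most electron carrier, Calvin cycle and chlorophyll synthesis loci are open and nearer to 0. The choice of the 61 genes by this contrast favours filled loci away from 0 and open loci near it.

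Loci that did not pass included some with many reads. Os09g0346500, set down as an antenna locus and without a name in the files, had 26598, 25538 and 28193 normalized reads in pine1 replicates 1 to 3, against 26763, 27603 and 21799.8 in wild type replicates 1 to 3. Its groups overlapped, and the log2 fold change was 0.08 (95% interval -0.11 to 0.27, limma adjusted p = 0.64). Os11g0707000, set down in the Calvin cycle list, had 8700.0 ± 783 normalized reads in pine1 and 8552 ± 1129.8 in wild type (SD, n = 3 each), a change of 0.03 on the log2 scale with an interval of -0.19 to 0.25. Os04g0690800, set down in the photosystem II list, was the 1 locus lower at an unadjusted p under 0.05, with 3295, 2988 and 2097 normalized reads in pine1 replicates 1 to 3, against 5724, 4841 and 3083 in wild type replicates 1 to 3. Its groups overlapped and it did not pass (log2 fold change -0.68, limma adjusted p = 0.12), but it was called lower without wild type replicate 3 (-0.94, adjusted p = 0.022, against 0.000385 to 0.33 over 14 alternatives). These 3 loci were chosen after their values were seen.

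Of 5 KNOX homeobox loci, which mark meristem tissue, 3 rose in pine1, 0 fell and 2 did not pass by limma (1 of them lower at an unadjusted p under 0.05), against 4.02% of all genes tested that were called higher. The sum was 3757, 4476 and 3599 normalized reads in pine1 replicates 1 to 3, against 2036, 2632 and 2639.7 in wild type replicates 1 to 3. The sums did not overlap between the genotypes, and 2 loci instead of 3 rose when pine1 replicate 1, 2 or 3 or wild type replicate 3 was left out. The part of tissue make-up in the levels of the photosynthesis genes was not tested. Just outside the rule, OsCPS1 (Os02g0278700), flo4 (Os05g0405000) and Os07g0613500 carry chloroplast in a description but were left out, at log2 fold changes of 1.55, 0.37 and 0.49. The pyruvate, phosphate dikinase gene flo4, of which the groups overlapped, had 1544, 2012 and 1929.8 normalized reads in pine1 replicates 1 to 3, against 1668, 1384 and 1214 in wild type replicates 1 to 3.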

How the data were processed

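Messenger RNA of 6 rice samples was enriched with oligo(dT) beads, per the labels' protocols. These do not say whether strand was kept, so antisense or overlapping genes cannot be told apart. The submitters' processing notes name FastQC, STAR, HTSeq and DESeq2 and the build IRGSP-1.0, without versions or settings. The deposited sheet holds 2 tables. The first gives a signal per gene and library, headed as normalized reads: gene counts that the authors divided by a size factor, since 100% of the values per library were whole multiples of a step (tolerance 0.001 reads). The second is the authors' deposited DESeq2 comparison, with log2 fold changes of wild type over pine1, standard errors on the log2 scale, and p-values, per the file headers.

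As designed, limma (empirical Bayes, intensity trend) compared pine1 with wild type on log2(normalized reads + 1), a scale on which changes of low genes are understated. The 24149 genes kept by edgeR's filterByExpr (minimum count 10) on recovered reads were tested, and calls need a Benjamini-Hochberg adjusted p under 0.05. The fits were tested on simulated data with planted changes of at least 1 on the log2 scale. Most changes described here are smaller, so that the simulation does not check calls of that size. Alternatives were edgeR and DESeq2 on recovered reads, a pseudocount of 5, no filter, a filter of 5 CPM, TMM and upper-quartile scaling, a replicate block and leaving out each library. DESeq2 on these libraries also made the authors' table, so that its refit is no separate check of genes in that table. Versions were Python 3.11.15, DESeq2 1.42.0, edgeR 4.0.16, limma 3.58.1 and R 4.3.3.

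The 61 genes and the loci lists were chosen with earlier results of these data known. Role groups were set by words in the descriptions and corrected by hand after reading them. The rule for named genes took, in each role group, up to 3 genes with the largest rise, up to 3 with the largest fall and the one with the most reads, and, of called list loci outside the 61, up to 2 per list and direction. The other genes of the 61 that are named were added after their values were seen, to account for each of them. The clock, marker and second GLK loci that are named, and the chromosome 12 loci named beside RbcS3, were also chosen after their values were seen. Names come from the authors' deposited table, in which 48 of the 61 genes have a symbol. Loci outside it carry an identifier and the list they were written into. Gene coordinates and sequences were not used here.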

Additional observations from a re-analysis of the deposited data

How the results depend on the processing

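The direction of each of the 61 genes held in all 851 refits. These were 14 alternatives per gene, fewer for 3 genes that the filter of 5 CPM removes. With a library left out or a pseudocount of 5 the direction could not turn, since the genotypes did not overlap in any of the 61 genes. The filter settings and the replicate block leave the log2 fold change of a gene as it is. Only edgeR, DESeq2, TMM and upper-quartile scaling could have turned it, in genes chosen for their difference. No log2 fold change moved by more than the spread between its replicates. Leaving out 1 of 3 libraries cannot move it that far, and the filter settings and the block do not move it, so that those refits do not check this. In 4 cases, all without pine1 replicate 3 (WGL2, OsGLN2, OsDR8 and GSA), the log2 fold change moved by over 1.5 times. The median over the 61 genes ranged from 0.29 to 0.36 with a library left out and from 0.31 to 0.33 otherwise, the 0.32 without the phytocyanins, a choice made after seeing the data, included. Medians of role groups moved by more than their spread with a library left out in carbon genes (0.33 to 0.50), nitrogen, amino acid and cofactor genes (0.27 to 0.42), carotenoid and tocopherol genes (0.28 to 0.39; 0.31 with the filter of 5 CPM, which removes HTD1) and plastid gene expression genes (0.19 to 0.35).

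Counts of calls also depended on the samples. Over all genes, 970 were called higher and 589 lower. With a library left out 570 to 760 were higher and 266 to 550 lower (570 higher and 266 lower without wild type replicate 1, 272 lower without wild type replicate 2, 388 lower without wild type replicate 3), and with the filter of 5 CPM 573 were higher. Of the pathway loci 24 rose, against 8 to 24 with a library left out, 25 with edgeR and 31 with DESeq2, and 0 to 1 fell. The authors' table, also made by DESeq2 on these libraries, holds 31 of the pathway loci. Fewer samples lower the power of each left-out fit. The labels number the replicates but do not say whether libraries of the same number are paired. The deviations of same-numbered libraries correlated at 0.06, 0.02 and 0.13, and those of other pairs at -0.24 to 0.16. The summed clock loci, however, rose from replicate 1 to replicate 3 in both genotypes, so that a pairing stays undecided. With the replicate block 1195 genes were higher, 799 lower, 28 pathway loci rose and 1 (Os04g0690800) fell, 2 clock loci rose, 1 root marker rose and 1 fell, and Os04g0459500 was not called (adjusted p 0.0568). The 61 genes had 44 or more reads in each library.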

Other observations

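Plastid-encoded genes of thylakoid complexes had few reads in these libraries, which were enriched for polyadenylated RNA. Of the table's features named as photosystem, NADH dehydrogenase or ATP synthase genes, 11 carry symbols that RefSeq (assembly ASM3414082v1) places in the plastid and not in the mitochondrion. Together they had 269.6, 220.3 and 212 normalized reads in pine1 replicates 1 to 3, against 232, 265 and 194 in wild type replicates 1 to 3, groups that overlap. Of the 11, 2 had enough reads to be tested and 0 were called by limma, edgeR or DESeq2 (0 at an unadjusted p under 0.05). The photosystem I gene psaC had 119.8, 108 and 91.4 normalized reads in pine1 replicates 1 to 3, against 93.9, 120.1 and 81.2 in wild type replicates 1 to 3. The photosystem II gene psbB had 112, 80.8 and 83.5 normalized reads in pine1 replicates 1 to 3, against 102, 98.0 and 76.1 in wild type replicates 1 to 3. Whether these genes differ from the nuclear photosystem genes was not tested.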
